A study of Mus musculus with 8 samples.

Results

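The insulin genes Ins1 and Ins2 and the amylin gene Iapp were taken by name from a table of 13725 genes of mouse pancreatic islets, and all 3 were measured in all 8 libraries. The islets came from female NOD mice aged 10 weeks, a strain that develops autoimmune diabetes. A vehicle group of 4 libraries and a PAHSA group of 4 libraries shared strain, sex, age and tissue and differed, by their labels, in treatment alone. PAHSAs are lipids in which palmitic acid is joined by an ester bond to hydroxy stearic acid, and the sample labels spell the name PASHA. The labels state no dose, route or length of treatment. The design text counts mice and the extraction protocol speaks of islets pooled from 2 mice, so a library may stand for 1 mouse or for a pool, and a p-value here reflects library-to-library spread, which may be partly technical. Values of single libraries are given in a fixed order, vehicle replicates 1, 3, 4, 5 and then PAHSA replicates 1, 2, 3, 4.

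Mice carry a pair of insulin genes, whereas most mammals carry a single one. Ins2 keeps the ancestral intron pattern, and Ins1 arose in rodents by retroposition of an Ins2 transcript. Both encode preproinsulin, which is cut and folded into insulin in the endoplasmic reticulum and the secretory granule of beta cells. Iapp encodes islet amyloid polypeptide, or amylin, a smaller peptide hormone that beta cells pack into the same granules and release with insulin, and that delta cells also express. In NOD mice, insulin is a central autoantigen, and amylin peptides are also seen by islet-reactive T cells.

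Estimated counts recovered from the deposited values came to between 34461742 and 45236238 per library, and the member with the fewest had 926513 estimated counts in its lowest library. Counting error is therefore small beside the spread between libraries. CPM here are read counts scaled to an effective library size, and the CPM listed for a library summed to between 965680 and 1069261. The islet label was checked against the hormone genes, and Ins2 was the gene with the largest share of CPM in every library. The hormone genes of alpha, delta and PP cells were present in every library. Acinar genes of the surrounding gland took from 0.0584% to 5.35% of CPM, with PAHSA replicate 4 lowest and vehicle replicate 4 highest.

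Ins1 (ENSMUSG00000035804) lies at chr19:52264297-52265476 on the plus strand in GRCm38, Ins2 (ENSMUSG00000000215) at chr7:142678656-142743381 on the minus strand and Iapp (ENSMUSG00000041681) at chr6:142298423-142303961 on the plus strand. Ins1 and Ins2 resemble each other closely enough that the splitting of reads between them is part of the measurement. Their first 150 coding bases, taken from the GENCODE M21 transcripts, are shown because they hold the start of both preproinsulins. Capitals mark the 14 bases at which the genes differ. The Ins1 stretch is at chr19:52264624-52264773 on the plus strand and the Ins2 stretch at chr7:142679384-142679533 on the minus strand, each within 1 exon.
Ins1: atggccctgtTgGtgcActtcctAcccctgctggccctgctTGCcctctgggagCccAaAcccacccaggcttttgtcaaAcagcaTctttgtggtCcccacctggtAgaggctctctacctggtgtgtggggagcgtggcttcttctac
Ins2: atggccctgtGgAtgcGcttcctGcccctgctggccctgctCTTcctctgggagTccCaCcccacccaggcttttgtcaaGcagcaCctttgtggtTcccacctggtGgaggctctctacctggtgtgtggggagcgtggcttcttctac

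Over the whole coding sequence, 324 bases in Ins1 and 330 in Ins2 without the stop codon, 300 of 330 aligned positions were identical (90.9%), 24 differed and 6 were a gap in Ins1. The longest identical run was 54 bases. Counted as words of 31 bases, the default word length of kallisto, 47 of the 1032 words of the Ins1 transcript also occurred in Ins2, and 47 of the 448 words of the Ins2 transcript Ins2-201 also occurred in Ins1. No other gene shared a word with either of them. Most words thus tell the genes apart, while a read that lies within an identical run is divided by the model. The Iapp transcript shared 0 of its 809 words with any other gene. Iapp lies inside the span of Slco1a5, an organic anion transporter gene on the opposite strand, and the library kit does not mark strand. Slco1a5 had a mean of only 0.08 log2 CPM against 15.02 for Iapp.

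Promoter sequence from RefSeq (GRCm38.p6) was matched for Ins1 and Iapp. It is shown because insulin and amylin transcription in beta cells uses the same kinds of factor. The 250 bases before the start that the RefSeq table uses, which for Iapp differs slightly from the GENCODE start given above, are printed, with capitals at matches to CATCTG, an E-box core bound by NeuroD1 with its partners, and to TAAT, the core bound by homeodomain factors such as Pdx1, each searched on both strands (as CATCTG or CAGATG, and as TAAT or ATTA). The Ins1 window is chr19:52264047-52264296 and the Iapp window chr6:142298175-142298424, both on the plus strand.
Ins1: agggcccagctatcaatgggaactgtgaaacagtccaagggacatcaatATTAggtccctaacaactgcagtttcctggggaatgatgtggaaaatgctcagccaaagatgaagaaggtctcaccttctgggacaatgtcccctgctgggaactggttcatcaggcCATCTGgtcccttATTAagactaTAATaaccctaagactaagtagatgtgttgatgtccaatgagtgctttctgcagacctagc
Iapp: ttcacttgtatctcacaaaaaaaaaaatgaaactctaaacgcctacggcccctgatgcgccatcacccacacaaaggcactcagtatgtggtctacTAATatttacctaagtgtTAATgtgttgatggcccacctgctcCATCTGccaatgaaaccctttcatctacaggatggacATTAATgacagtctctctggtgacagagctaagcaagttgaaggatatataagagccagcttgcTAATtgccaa

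Each window held 1 match to CATCTG, which starts 84 bases before the annotated start in Ins1 and 111 bases before it in Iapp. Where transcription begins in these islets was not tested. The windows may therefore not be the stretch next to the start used, and other matches may lie outside them. TAAT matched 3 times in Ins1 and 5 times in Iapp, where 2 of the matches overlap each other on opposite strands. Of 32851 promoter windows of this length in the table, 14.4% held CATCTG, 54.9% held TAAT, 17.3% held TAAT 3 or more times and 8.91% held both words. A match is a description of the letters in the window.

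Ins2 made up 7.87%, 7.65%, 10.1% and 7.92% of CPM with vehicle and 9.92%, 10.3%, 9.46% and 8.19% with PAHSA. It ranked first by CPM in all 8 libraries. In vehicle, replicate 4 stood above the other 3 libraries, and on this scale it lay above 3 of the 4 PAHSA libraries as well, so the groups overlapped. The listed CPM of vehicle replicate 4 had the largest sum, 1069261, and the order over each library's own sum is not given here. In bulk islet RNA, a change in the number of beta cells and a change in RNA per beta cell cannot be told apart.

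Ins1 made up 2.63%, 2.52%, 3.55% and 2.53% of CPM with vehicle and 2.89%, 3.50%, 2.98% and 2.48% with PAHSA. The highest Ins1 share was in vehicle replicate 4 and the lowest in PAHSA replicate 4, so the range of each group covered most of the other's. Iapp took 3.39%, 3.36%, 4.15% and 3.11% in vehicle and 3.05%, 3.54%, 2.82% and 3.25% in PAHSA. Vehicle replicate 4 was again the highest, and 2 PAHSA libraries, replicates 1 and 3, lay below every vehicle library.

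The 3 genes together took between 13.5% and 17.8% of CPM. Their summed share averaged 14.7% ± 2.08 with vehicle and 15.6% ± 1.43 with PAHSA (SD, n = 4). The differences of the mean shares, PAHSA minus vehicle, were 0.157 percentage points for Ins1, 1.09 for Ins2, -0.338 for Iapp and 0.908 for their sum. In two-sided exact permutation tests over the 70 assignments of the libraries, the p values were 0.657 for Ins1, 0.2 for Ins2, 0.286 for Iapp and 0.543 for the sum, adjusted over these 4 to 0.657, 0.571, 0.571 and 0.657. None of the 4 shares differed beyond the spread between libraries. Over each library's own CPM sum, the Ins2 difference was 1.29 points (exact permutation p = 0.0571, adjusted 0.229). On that denominator it was 0.221 for Ins1, -0.268 for Iapp and 1.24 for the sum (exact permutation adjusted p = 0.429, 0.381 and 0.381). The smallest p this design can give is 0.0286.

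**Figure D1:**
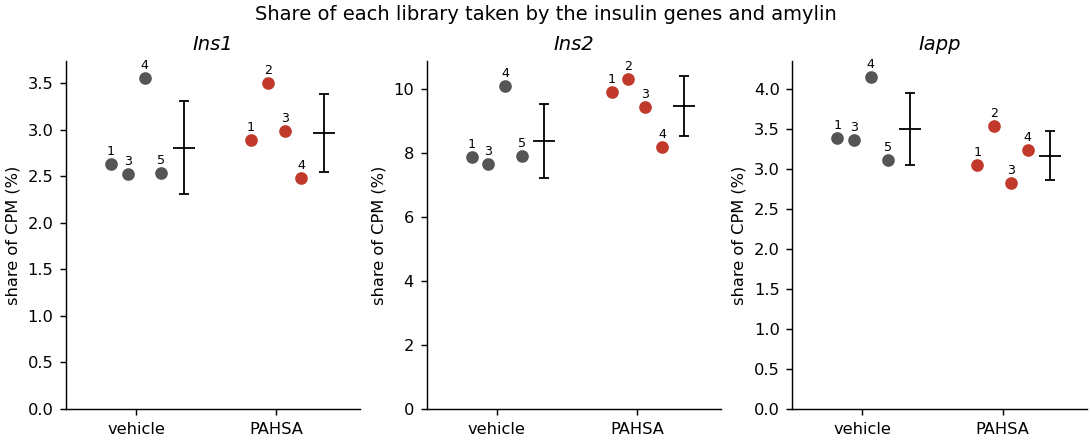
Share of CPM (%) of Ins1, Ins2 and Iapp in each library, with vehicle in grey and PAHSA in red. Points are libraries with their replicate numbers, and the bar is the group mean with its SD (n = 4). Ins2 and Ins1 were highest in vehicle replicate 4 and PAHSA replicate 2, and the groups overlapped for all 3 genes.

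The fit across all genes gave the same picture on the log2 CPM scale. The log2 differences were 0.08 (SE 0.14, 95% confidence interval -0.23 to 0.40) for Ins1, 0.18 (SE 0.13, -0.11 to 0.47) for Ins2 and -0.14 (SE 0.12, -0.41 to 0.12) for Iapp. As folds, these are 1.06, 1.13 and 0.906. The Benjamini-Hochberg adjusted p of limma was 0.924, 0.795 and 0.8292, and 0 of the 3 genes had an unadjusted p under 0.05. Over all 12231 genes tested, 0 passed an adjusted p of 0.05 (0%) and 894 had an unadjusted p under 0.05 (7.31%). All 3 intervals include 0. The Ins1 difference was -0.0004 without PAHSA replicate 2 and 0.20 without vehicle replicate 4. Without vehicle replicate 4, Ins2 differed by 0.27 and Iapp by -0.06.

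Ratios of the members were also compared within each library, where library scaling cancels. The insulin genes lay on the higher side in PAHSA and Iapp on the lower side in these same libraries. The ratio tests are therefore no separate support for that pattern. The CPM ratio of Iapp to Ins2 was 0.431, 0.440, 0.411 and 0.393 in the vehicle libraries, and 0.308, 0.343, 0.299 and 0.396 in the PAHSA libraries. PAHSA replicates 1, 2 and 3 lay below every vehicle library, and PAHSA replicate 4 lay just above the lowest vehicle library. All 4 PAHSA libraries were below the vehicle mean.

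On the log2 scale the Iapp to Ins2 ratio was -1.26 ± 0.07 with vehicle and -1.58 ± 0.19 with PAHSA (SD, n = 4), a difference of -0.32, or 0.799-fold. The two-sided exact permutation p was 0.0571, adjusted to 0.0857 over the 3 ratios examined, so the difference did not pass. The interval from the same permutation test ran from -0.555 to 0.01. Over all alternatives the exact permutation adjusted p ranged from 0.0429 to 0.25. The 0.25 came from the replicate block on the libraries numbered 1, 3 and 4. It is the smallest p that so few pairs can give, so that setting cannot decide. Without PAHSA replicate 4 the difference was -0.41 (exact permutation adjusted p = 0.0429). That library alone in PAHSA lay within the vehicle range, so leaving it out separates the groups and fixes p at its smallest value. That library also had the lowest share of acinar genes, 0.0584% of CPM against 0.478% or more in the others, and the part of this in the ratio was not tested. Iapp to summed insulin gave the same pattern, with PAHSA replicate 4 again the only PAHSA library within the vehicle range. The CPM ratio was between 0.298 and 0.331 in vehicle, and 0.238, 0.256, 0.227 and 0.304 in the PAHSA libraries. The log2 difference was -0.30 (exact permutation p = 0.0571, adjusted 0.0857; 0.0429 without PAHSA replicate 4, 4 of 4 libraries below the vehicle mean).

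The ratio of Ins1 to Ins2 varied less. It was 0.334, 0.329, 0.352 and 0.319 in the vehicle libraries, and 0.291, 0.339, 0.316 and 0.303 in the PAHSA libraries. PAHSA replicates 1, 3 and 4 lay below every vehicle library and PAHSA replicate 2 lay within the vehicle range. The log2 ratio was -1.58 ± 0.06 with vehicle and -1.68 ± 0.09 with PAHSA (SD, n = 4), a difference of -0.10 with an interval from -0.27 to 0.08 (two-sided exact permutation p = 0.171, adjusted 0.171). Put as a share of insulin CPM, Ins2 made up 75.0% ± 0.754 with vehicle and 76.2% ± 1.18 with PAHSA (SD, n = 4).

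**Figure D2:**
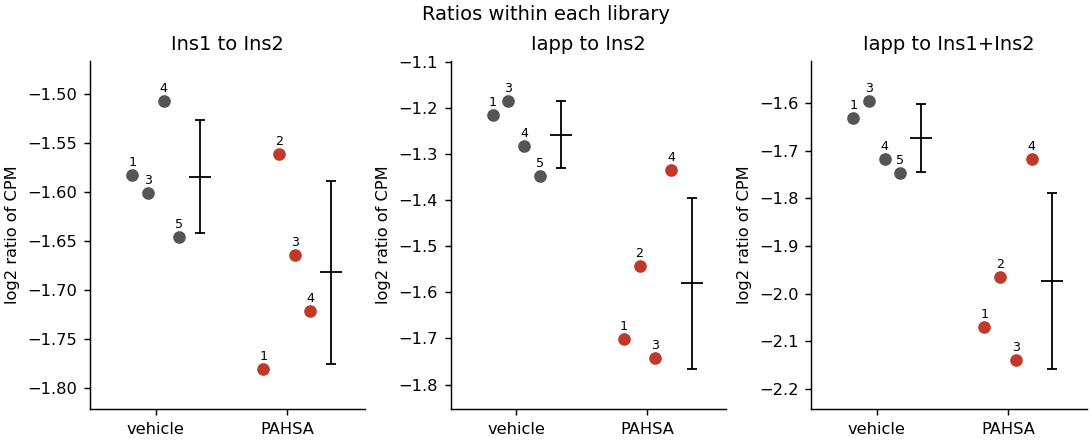
Log2 ratios of CPM within each library, with points, replicate numbers and mean ± SD bars (n = 4) as for the shares. Iapp to Ins2 ran from -1.35 to -1.19 in vehicle and from -1.74 to -1.33 in PAHSA, where replicate 4 alone lay within the vehicle range.

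Levels of different genes compare only per length. Divided by the annotated transcript length, Iapp (839 bases) averaged 39754 CPM per kilobase and Ins1 (1062 bases) 27169 CPM per kilobase over the 8 libraries. Ins2 averaged between 161747 and 196229 CPM per kilobase, depending on which of its 4 best-supported transcripts (455 to 552 bases) was used. On this scale Ins2 was between 5.95-fold and 7.22-fold the Ins1 level. Per kilobase of coding sequence it was between 3.04-fold and 3.15-fold. Only 324 of the 1062 bases of the annotated Ins1 transcript are coding, so the fold between the 2 genes depends on the length used.

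The SD of log2 CPM was 0.24, 0.19 and 0.18 for Ins1, Ins2 and Iapp in vehicle and 0.20, 0.15 and 0.14 in PAHSA (n = 4 each). The coefficient of variation of the share was 17.8%, 13.7% and 12.8% in vehicle and 14.1%, 9.81% and 9.65% in PAHSA. The vehicle SDs rest on replicate 4. Without it they were 0.03, 0.03 and 0.07 (n = 3), below the PAHSA values, so which group varied more depends on that library. Without PAHSA replicate 4, the Ins2 SD in PAHSA was 0.06 (n = 3). Among the 100 most abundant genes, ordered from the smallest SD, Ins1, Ins2 and Iapp ranked 81, 76 and 74 in vehicle and 69, 42 and 41 in PAHSA. The median SD of those 100 genes was 0.10 in vehicle and 0.17 in PAHSA. Without vehicle replicate 4 the members ranked 13, 8 and 41 in vehicle, against a median SD of 0.08.

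**Figure D3:**
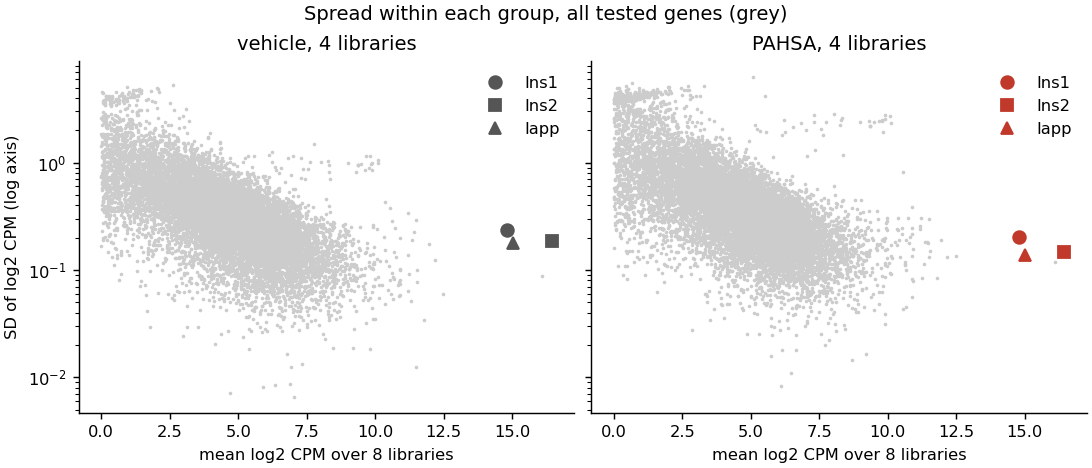
SD of log2 CPM (log axis) against mean log2 CPM for each tested gene in grey, in the 4 vehicle and the 4 PAHSA libraries, with the 3 genes marked. They sit at the abundant end, with SDs between 0.18 and 0.24 in vehicle and between 0.14 and 0.20 in PAHSA, where the vehicle values rest on replicate 4.

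Ins1 and Ins2 went up and down together over the libraries. Pearson's r of their log2 CPM was 0.907 (exact permutation p = 0.0034, adjusted 0.0304 over 9 relations) and Spearman's rho was 0.786 (exact permutation p = 0.0279, adjusted 0.251), with n = 8. It was 0.898 without the 2 libraries farthest from the median, and 0.992 within vehicle and 0.908 within PAHSA as descriptions over 4 libraries. Within vehicle it was 0.426 without replicate 4 (n = 3). With group means removed, r was 0.958 (permutation adjusted p = 0.002). That p is approximate and may be too small, because the deviations were permuted over all 8 libraries though they sum to 0 within each group. Leaving out any 1 library kept r between 0.877 and 0.961, with an exact permutation adjusted p between 0.0625 and 0.100. With each library rescaled to its own CPM sum, r was 0.868 (exact permutation adjusted p = 0.130). The 2 genes share reads within identical runs, and the part of this in the relation was not tested.

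For Iapp, r over the 8 libraries was 0.527 with Ins1 (exact permutation p = 0.183, adjusted 0.528; rho 0.333, p = 0.428, adjusted 0.642) and 0.235 with Ins2 (exact permutation p = 0.603, adjusted 0.775; rho 0.214, p = 0.619, adjusted 0.748). Without the 2 farthest libraries, vehicle replicate 4 and PAHSA replicate 2, r of Iapp with Ins1 was -0.793, so that relation rests on them. With Ins2, r was 0.207 without vehicle replicate 3 and PAHSA replicate 2. With group means removed, r was 0.719 with Ins1 (permutation p = 0.044, adjusted 0.0989) and 0.632 with Ins2 (permutation p = 0.0926, adjusted 0.167), where the p values may again be too small. As descriptions over 4 libraries, r with Ins1 and Ins2 was 0.962 and 0.923 within vehicle and 0.357 and 0.158 within PAHSA. The vehicle values rest on replicate 4, without which they were 0.488 and -0.582 (n = 3).

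The genes whose log2 CPM was most like a member over the 8 libraries were sought among 5166 genes with a mean log2 CPM above 5. For Ins1 they were the respiratory chain genes Ndufa13 (r = 0.990), Ndufb11 (0.965) and Ndufa7 (0.954), the small GTPase gene Cdc42 (0.972) and the cytochrome oxidase subunit gene Cox8a (0.970). For Ins2 they were Ndufa11 (0.9599), Card19 (0.959), the ribosomal protein genes Rps19 (0.942) and Rps4x (0.939) and Bcl7b (0.935). For Iapp they were the cold-induced RNA-binding protein gene Rbm3 (0.965), Ufc1 (0.961), a conjugating enzyme of the ufmylation pathway, Ndufa1 (0.952), the signal peptidase subunit gene Sec11c (0.951) and Ube2v1 (0.947). Of these 15 genes, 11 have a transcript under 1000 bases, and their median length was 908 bases, whereas 20.035% of the genes searched were that short and their median was 2152.5 bases.

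The Iapp and Ins2 transcripts are also under 1000 bases, while that of Ins1 is 1062 bases. The level of short transcripts was therefore taken for each library, a measure chosen after these genes were seen. It is the median, over 1091 genes with transcripts under 1000 bases and without the members, of each gene's log2 CPM minus its mean over the 8 libraries. It was -0.05, -0.04, 0.11 and -0.04 in the vehicle libraries, and 0.01, 0.08, -0.0005 and -0.04 in the PAHSA libraries. Vehicle replicate 4 and PAHSA replicate 2, the libraries with the highest insulin shares, also had the highest level of short transcripts. Over 916 genes with transcripts above 4000 bases the same measure was lowest in these 2 libraries, at -0.12 and -0.06. The 11 short genes named above stay in the short-transcript level, and the p values below do not account for its choice.

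Ins1 followed the short-transcript level with r = 0.970 (exact permutation p = 0.0018, adjusted 0.0054 over 6 relations) and rho = 0.762 (exact permutation p = 0.0368, adjusted 0.110), and with r = 0.887 without those 2 libraries. Ins2 followed it with r = 0.883 (exact permutation p = 0.001, adjusted 0.0054) and rho = 0.952 (exact permutation p = 0.0011, adjusted 0.0068), and with r = 0.983 without them. For Iapp r was 0.633 (exact permutation p = 0.0956, adjusted 0.191; rho 0.214, p = 0.619, adjusted 0.665) and -0.792 without them. The ratios of Iapp to Ins2 and of Ins1 to Ins2 gave r of -0.260 (exact permutation p = 0.538, adjusted 0.538; rho -0.5, p = 0.216, adjusted 0.324) and 0.474 (exact permutation p = 0.234, adjusted 0.351; rho 0.191, p = 0.665, adjusted 0.665). Without those 2 libraries they gave -0.958 and -0.726. With the short-transcript level as a covariate, limma gave differences of 0.02 for Ins1, 0.14 for Ins2 and -0.18 for Iapp, with adjusted p of 0.949, 0.670 and 0.589.

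**Figure D4:**
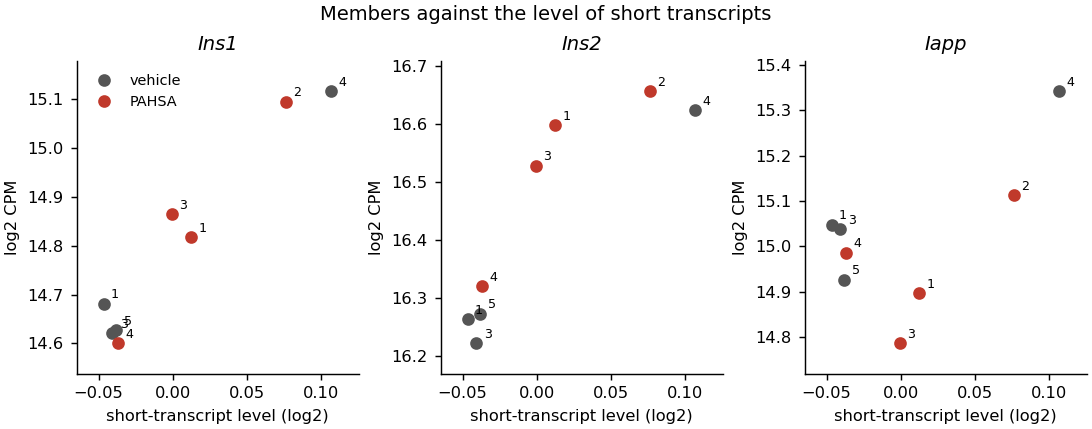
Log2 CPM of Ins1, Ins2 and Iapp against the median deviation of short transcripts (log2) in each library, with vehicle in grey, PAHSA in red and replicate numbers beside the points. Ins1 and Ins2 lie along a rising line (r = 0.970 and 0.883), while Iapp is highest in vehicle replicate 4 and lowest in PAHSA replicate 3.

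Other islet hormones gave a measure of the non-beta share. Gcg, the glucagon gene of alpha cells, made up 6.04%, 6.55%, 6.90% and 6.82% of CPM with vehicle and 7.73%, 6.62%, 7.48% and 8.02% with PAHSA. PAHSA replicates 1, 3 and 4 lay above every vehicle library, and the log2 difference was 0.18 (SE 0.11). Sst, the somatostatin gene of delta cells, differed by -0.10 (SE 0.10), Ppy, the pancreatic polypeptide gene, by -0.29 (SE 0.17) and Pyy, the peptide YY gene, by -0.06 (SE 0.10). In limma 0 of these 4 genes passed over all genes, with adjusted p of 0.748 for Gcg and Ppy, 0.854 for Sst and 0.913 for Pyy, and 0 had an unadjusted p under 0.05. Shares were also taken of the sum of all islet hormones, in which the 3 members are included and make up most. The difference was then 1.90 percentage points for Ins2 (exact permutation p = 0.229, adjusted 0.457), and that of Ins1 turned to -0.206 and that of the 3 members to -0.814. On that denominator the Iapp difference was -2.50 points (two-sided exact permutation p = 0.0286, the smallest the design can give, adjusted 0.114). As that denominator holds both insulin genes, this is no separate result beside the ratios of Iapp to insulin. After Ins2, Gcg, Iapp and Ins1, the next gene by mean share of CPM was Chga, the chromogranin A gene of secretory granules, at 0.571%. Sst followed at 0.465%, Acly, of fatty acid synthesis, at 0.401%, and the granule genes Scg2 and Cpe at 0.354% and 0.298%.

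Genes that act on the insulin genes, from a list of 18 transcription factors and partners, were mostly on the higher side in PAHSA. Of 18 tested, 13 were higher and 5 lower, where 49.1% of all genes tested were higher. The median difference was 0.17, against -0.0056 over all genes. In limma 0 passed over all genes, and 3 were higher at an unadjusted p under 0.05, a level that 3.02% of all genes reached in that direction. They were Foxa2, a pioneer factor of endodermal organs, at 0.44 (SE 0.18), Mafa, an activator of insulin promoters in mature beta cells, at 0.40 (SE 0.16), and Tcf3, a partner of NeuroD1 at E-boxes, at 0.74 (SE 0.32).

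Foxa2 was at 5.56, 5.14, 5.85 and 5.80 log2 CPM in the vehicle libraries and at 6.001, 6.02, 6.22 and 5.86 in the PAHSA libraries. The lowest PAHSA library lay barely above the highest vehicle library, and 4.01% of all genes had groups that did not overlap. Mafa was at 7.17, 6.48, 6.70 and 7.12 in vehicle and at 7.32, 7.37, 7.06 and 7.34 in PAHSA, so PAHSA replicate 3 lay within the vehicle range.

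Of 7 genes that act on insulin mRNA or on translation, 4 were higher and 3 lower, with a median of 0.05. Elavl4, an RNA-binding protein that represses insulin translation, was at 0.55 (SE 0.24), Ptbp1, which binds and stabilises insulin mRNA, at 0.24 (SE 0.11), and Eif2s1, a subunit of the initiation factor that stress kinases phosphorylate, at -0.21 (SE 0.09). In limma 0 of the 7 passed over all genes, and 1 was higher and 1 lower at an unadjusted p under 0.05, against 3.02% and 4.29% of all genes.

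Genes that carry preproinsulin into and through the endoplasmic reticulum were mostly on the lower side. Of 22 tested, 19 were lower and 3 higher, where 50.9% of all genes were lower, with a median difference of -0.19. In limma 0 passed over all genes, and 6 were lower at an unadjusted p under 0.05, against 4.29% of all genes in that direction. Ssr1, a translocon-associated subunit, was at 8.67, 8.65, 8.75 and 8.64 log2 CPM in the vehicle libraries and at 8.09, 8.37, 8.20 and 8.31 in the PAHSA libraries, a difference of -0.43 (SE 0.09). All PAHSA libraries lay below all vehicle libraries for Ssr1, and also for P4hb. Of the 22 genes, 3 had groups that did not overlap, where 4.01% of all genes tested did so in either direction. The disulfide isomerase gene P4hb differed by -0.33 (SE 0.12) and the oxidase gene Ero1l, also named Ero1a, by -0.42 (SE 0.15).

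Genes of prohormone processing and the granule were split, with 6 higher and 8 lower of 14 and a median of -0.04. In limma 0 passed over all genes, while 4 were lower at an unadjusted p under 0.05, against 4.29% of all genes. Pam, which amidates the end of amylin and other peptides, was at 11.34, 11.44, 11.33 and 11.45 log2 CPM in the vehicle libraries and at 10.67, 10.94, 11.03 and 11.40 in the PAHSA libraries, a difference of -0.38 (SE 0.13). Pcsk1, a convertase that cuts proinsulin and pro-amylin, was at 9.45, 9.53, 9.50 and 9.54 in vehicle and at 8.69, 9.19, 9.04 and 9.55 in PAHSA, a difference of -0.39 (SE 0.15). In both genes PAHSA replicates 1, 2 and 3 lay below every vehicle library and PAHSA replicate 4 did not. The share of all genes with this order was not counted. Vgf, a granule precursor protein gene, differed by -0.46 (SE 0.17).

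Of 13 genes of glucose sensing and insulin release, 7 were higher and 6 lower with a median of 0.07, and in limma 0 passed over all genes. Slc2a2, the glucose transporter of rodent beta cells, was at 0.64 (SE 0.27), Unc13a, a vesicle priming gene, at -0.57 (SE 0.21) and Glp1r, the incretin receptor gene, at 0.26 (SE 0.13). At an unadjusted p under 0.05, 1 was higher and 1 lower, against 3.02% and 4.29% of all genes. Among receptors and enzymes that receive or degrade insulin and amylin, 2 of 6 tested were higher and 4 lower, with a median of -0.12 and 0 at an unadjusted p under 0.05. Irs2, an adaptor of the insulin receptor, was at -0.23 (SE 0.15), the insulin-degrading enzyme gene Ide at 0.31 (SE 0.28) and the insulin receptor gene Insr at 0.29 (SE 0.29). The amylin receptor genes Calcr and Ramp3 were not analysed here.

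**Figure D5:**
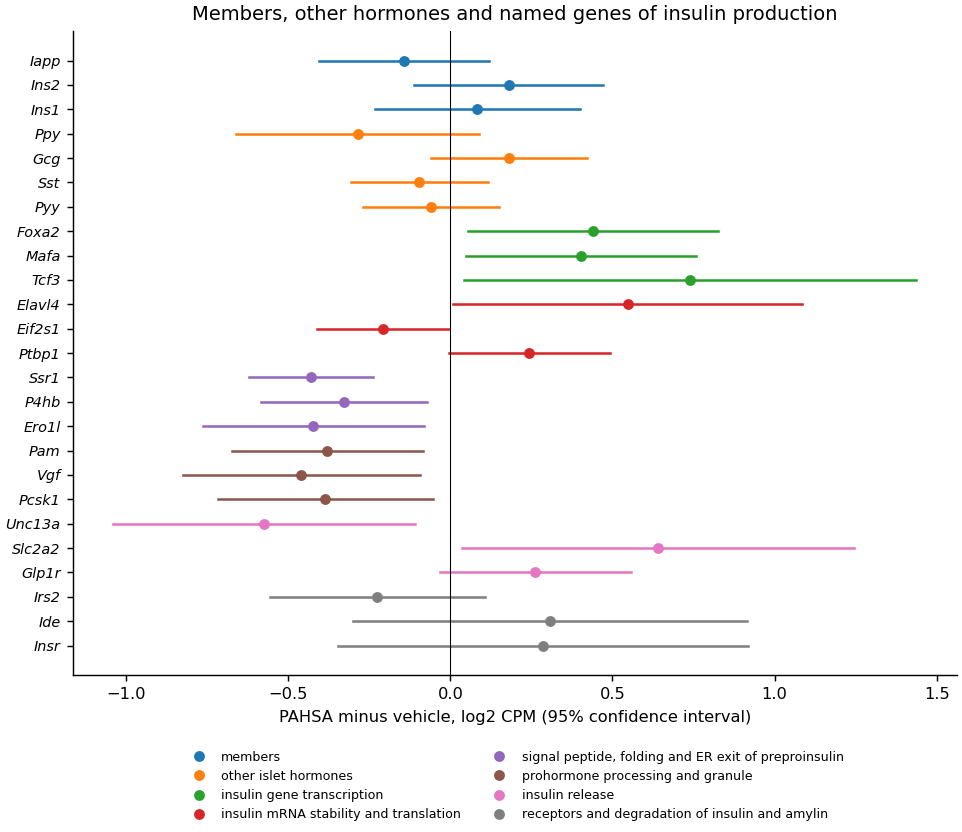
Log2 difference, PAHSA minus vehicle, with its 95% confidence interval from limma, for the 3 members, the other islet hormones and the 3 genes with the smallest p of each list of insulin production. Intervals of Ins1, Ins2 and Iapp all cross 0, and those of Ssr1, P4hb, Pam and Pcsk1 lie below it without passing over all genes.

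Markers of other cells moved between libraries too. Of 15 beta cell markers other than the members, 12 were higher and 3 lower with a median of 0.23, where 49.1% of all genes tested were higher. Ucn3 at 0.77 (SE 0.15), Mafa and Slc2a2 led these markers. On the log2 CPM scale these markers averaged 7.70 ± 0.10 with vehicle and 7.94 ± 0.08 with PAHSA (SD, n = 4). All PAHSA libraries lay above all vehicle libraries, where 4.01% of all genes taken singly had groups that did not overlap. A fit with the marker mean as a covariate thus cannot separate its part from that of treatment. Against the members over the 8 libraries, r was -0.096 for Ins1 (exact permutation p = 0.823, adjusted 0.823; rho -0.048, p = 0.935, adjusted 0.935), 0.273 for Ins2 (p = 0.498, adjusted 0.747; rho 0.405, p = 0.327, adjusted 0.588) and -0.582 for Iapp (p = 0.127, adjusted 0.528; rho -0.619, p = 0.115, adjusted 0.345). Without the 2 farthest libraries r was -0.501, -0.269 and -0.686. With this mean as a covariate in limma, the differences were 0.37 for Ins1, 0.33 for Ins2 and 0.02 for Iapp, each with an adjusted p of 1.

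All 29 tested acinar markers were lower, with a median of -2.37, where 50.9% of all genes tested were lower. Of the 29, 20 had an unadjusted p under 0.05, against 4.29% of all genes in that direction. Dmbt1 differed by -2.36 (SE 0.88) and Gp2, a zymogen granule membrane gene, by -2.47 (SE 0.95). Their summed share ran from 1.35% to 5.35% of CPM in vehicle and from 0.0584% to 2.06% in PAHSA. Against the acinar mean, r was 0.477 for Ins1 (exact permutation p = 0.235, adjusted 0.528; rho 0.524, p = 0.197, adjusted 0.442), 0.205 for Ins2 (p = 0.715, adjusted 0.805; rho 0.191, p = 0.665, adjusted 0.748) and 0.378 for Iapp (p = 0.323, adjusted 0.582; rho 0.619, p = 0.115, adjusted 0.345). Without the 2 farthest libraries it was -0.114, -0.401 and 0.348. With acinar genes left out of the total, the share differences were 0.168 points for Ins1, 1.14 for Ins2 and -0.339 for Iapp, within 1 SD of those over all CPM. Within groups, r with the acinar mean was 0.734 in vehicle and 0.938 in PAHSA for Ins1, and 0.812 and 0.919 for Ins2, as descriptions over 4 libraries. Over 3 libraries, the vehicle value for Ins1 was -0.310 without replicate 4, and the PAHSA value for Ins2 was 0.355 without replicate 4. With the acinar mean as a covariate, limma gave a difference of 0.30 for Ins1 (unadjusted p = 0.0315, adjusted 0.658), 0.34 for Ins2 (unadjusted p = 0.0088, adjusted 0.577) and -0.11 for Iapp (adjusted p = 0.870). The insulin differences were thus larger with that term and did not pass over all genes.

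Over all genes tested, 49.1% were higher and 50.9% lower, the shares to set beside the counts that follow. Of 10 alpha cell markers 9 were higher (median 0.15; Ttr at 0.28, SE 0.14, and Slc7a2 at 0.18, SE 0.14), with a summed share of 6.18% to 7.06% in vehicle and 6.78% to 8.19% in PAHSA. Of 6 delta and PP cell markers 5 were lower (median -0.13; Rbp4 at 0.06, SE 0.08), and their sum was 0.954% to 1.19% and 0.860% to 1.06%. Of 9 duct markers 7 were lower (median -0.24; Spp1 at -0.73, SE 0.17, Muc1 at -1.15, SE 0.28, and Krt8 at -0.24, SE 0.09), with sums of 0.424% to 0.618% and 0.347% to 0.443%. Stellate cell, fibroblast and pericyte markers were lower in 8 of 9 (median -0.94; Dcn at -4.70, SE 1.61, Rgs5 at -2.20, SE 1.06, and Sparc at -0.87, SE 0.42). Dcn was at -4.61, 3.47, -4.73 and -0.09 log2 CPM in the PAHSA libraries and from 2.26 to 4.22 in vehicle. Its difference thus rests on libraries with almost no reads of it. Rgs5 averaged only 0.09 log2 CPM over all libraries.

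Macrophage and dendritic cell markers were lower in 4 of 5 (H2-Aa at -0.53, SE 0.32, H2-Ab1 at -0.66, SE 0.43, and Cd74 at -0.51, SE 0.35), and endothelial markers in 3 of 3 (Eng at -2.30, SE 1.56, Pecam1 at -0.16, SE 0.26, and Plvap at -0.41, SE 0.98). Eng and Plvap averaged only 0.46 and 0.91 log2 CPM. In PAHSA replicate 3, Eng was at -6.31, the lowest value of that library. The summed share of each of these 3 groups of markers reached at most 0.0632% of CPM. Of 16 T, NK and B cell markers, 2 were in the table and 0 were tested, so the immune infiltrate of these islets is not described by this list. In limma 0 markers of any of these lists passed over all genes, and at an unadjusted p under 0.05 3 beta cell list genes were higher, against 3.02% of all genes, and 20 acinar, 4 duct and 1 stellate list genes were lower, against 4.29%. Apart from the covariates given above, their part in the members' levels was not tested.

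The nearest tested genes on each chromosome were taken as neighbours of the members. The nearest tested genes on either side of Ins2 were Igf2, a fetal growth factor gene, at -0.50 (SE 0.73), and Th, the tyrosine hydroxylase gene, at 0.03 (SE 0.24). Beside Iapp they were Slco1a6 at 0.03 (SE 0.13) and Pyroxd1 at 0.08 (SE 0.23), and Slco1a5, which overlaps Iapp, was at -2.65 (SE 1.397) from a low level. Beside Ins1 they were Itprip at 1.08 (SE 1.54) and Xpnpep1 at 0.04 (SE 0.14). In limma 0 of these 7 genes passed over all genes or had an unadjusted p under 0.05.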

How the data were processed

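RNA of 8 islet libraries was measured by sequencing. RNA was purified on columns and made into libraries by Nextera XT, a kit that does not mark strand, per the labels' protocols. The authors deposited log2 CPM, counts scaled to an effective library size, for 13725 genes, each of which reached 0.258 CPM or more in at least 5 libraries. kallisto and limma were used, per the submitters' processing notes, with versions left out. Genome build and annotation were not given in the sources used here. The first of these tools divides reads of similar transcripts by a model. Its counts were recovered from the lowest value of each library, taken as 0 counts plus 0.5. Between 47.8% and 51.5% of the recovered values were whole to within 0.01, and they were used to describe depth only. Symbols, positions and lengths came from GENCODE M21 (GRCm38), and 56 identifiers had no match.

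Share of CPM is a gene's CPM as a percent of the CPM scale. limma 3.58.1 in R 4.3.3 (lmFit, eBayes with trend, group as the term) tested 12231 genes with a mean log2 CPM above 0, two-sided, with Benjamini-Hochberg adjustment, after the script was tested on simulated data. Shares and ratios were tested by exact permutation and correlations by exact permutation of pairings, in scipy 1.17.1 and numpy 2.4.6. The members and the 16 lists (209 entries, 178 in the table) were chosen with earlier results of these data known. Named genes are the members, the other hormones, the 3 smallest p of each list, the 5 genes most like each member, the 10 most abundant genes and the flanking tested genes, and 1 gene that this rule names is not reported here. Alternatives covered scaling, added counts, filters, variance model, covariates, denominators, the replicate block and each library left out. The short-transcript covariate and the spreads and within-group correlations with a library left out were added after seeing the data.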

Additional observations from a re-analysis of the deposited data

Results flagged for a closer look

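In vehicle replicate 4 the insulin genes stood apart from the other 3 vehicle libraries. Its Ins1 level was 15.12 log2 CPM against 14.62 to 14.68 in the others, and its Ins2 level was 16.62 against 16.22 to 16.27. As shares of CPM, Ins1 was at 3.55% against 2.52% to 2.63%, Ins2 at 10.1% against 7.65% to 7.92%, and the 3 genes together at 17.8% against 13.5% to 13.9%. In each case the gap to the nearest library, over the range of the group, exceeded the Dixon limit for 4 libraries. The 5 values come from 1 library and are not independent. Over the 28 groups of 4 examined, chance alone gives about 1 in 20. The same library had the highest level of short transcripts, 0.11, and the highest acinar share, 5.35% of CPM. Its listed CPM also had the largest sum, 1069261 against 976512 to 1000029 in the other vehicle libraries. The levels and shares above are not divided by that sum, and the gaps were not computed over it. The part of any of these in the gaps was not tested.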

How the results depend on the processing

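In limma 0 genes passed an adjusted p of 0.05 in all 19 alternatives, with between 389 and 1119 genes at an unadjusted p under 0.05. The Ins1 log2 difference turned to -0.0452 in the fit with a replicate block on the libraries numbered 1, 3 and 4, and ran from -0.0004 to 0.20 with each library left out. In the block fit Ins2 was at 0.11, Iapp at -0.25 and the ratio of Iapp to Ins2 at -0.37. Same-numbered libraries did not deviate together (r between -0.022 and -0.017), so no pairing by number was seen, though a small shared effect could be missed. Iapp turned to 0.0247 with the beta marker mean as covariate, where Ins1 was at 0.37 and Ins2 at 0.33. That mean itself separates the groups. Over summed islet hormones, the 3 genes included, the Ins1 share difference was -0.206 points and that of the 3 genes -0.814. Over the CPM scale the Ins1 share difference ran from -0.0221 to 0.405 with libraries left out. The log2 ratio of Iapp to Ins2 ran from -0.41 to -0.27 and that of Iapp to summed insulin from -0.385 to -0.24. Both passed the threshold only without PAHSA replicate 4, the sole PAHSA library within the vehicle range. The correlation of Ins1 and Ins2 was 0.868 after rescaling and 0.877 to 0.961 with libraries left out, not past the threshold. It was 0.958 with group means removed, past the threshold by a p that may be too small. That of Ins2 and Iapp was -0.0409 after rescaling, ran from -0.168 to 0.433 with libraries left out, and was 0.632 with group means removed. The mRNA stability list median ran from -0.052 to 0.084 and the release list median from 0.0307 to 0.1266. Quantile normalization sets the Ins2 difference to 0 by construction, since it ranks first in every library. For the other changes the cause was not tested. With 4 libraries a group, the spread between libraries limits these results rather than counting depth.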
